A study of Homo sapiens with 6 samples.

Results

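The genes of cholesterol and fatty acid synthesis were followed in 5637, an established human bladder cancer cell line, in 3 libraries labelled siNC and 3 labelled siYTHDC1. They were chosen by name, with earlier results of these data known, among them the fall of the sterol reductase gene LBR. Of 61860 gene rows in the table they take 40. These are 19 mevalonate and sterol pathway enzymes, 6 regulators and sterol transport genes and 15 genes of fatty acid synthesis, elongation, desaturation and use. Each of the 40 matched 1 row, and all 40 passed the filter on low counts that kept 17372 genes. YTHDC1 encodes a nuclear reader of N6-methyladenosine in RNA, and the comparison asks how transcripts differ where it is targeted. All cells were cultured in RPMI 1640 with 10% fetal bovine serum, a source of lipoprotein cholesterol and fatty acids, and siNC is the control arm. The labels name a transfection, an infection and a plasmid, so the reagent is unclear, and the siYTHDC1 columns carry the tag S1, which the labels do not explain.

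Cells make cholesterol from acetyl-CoA by way of mevalonate, isoprenoid phosphates, squalene and lanosterol. When sterols in the endoplasmic reticulum run low, SCAP escorts the SREBP transcription factors, the products of SREBF1 and SREBF2, to the Golgi for cleavage, and the released factors switch on genes of sterol and fatty acid synthesis. INSIG proteins hold SCAP back when sterols are ample. Fatty acid synthesis draws on the same acetyl-CoA, which ACLY makes from citrate and ACSS2 from acetate, and its product is then lengthened by elongases and given double bonds by desaturases.

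Total counts ran from 33223480 to 35607577 per library. The counts of YTHDC1 itself overlapped between the groups, at 50, 786 and 55 for siNC replicates 1 to 3 and 161, 18 and 14 for siYTHDC1 replicates 1 to 3. The fit gave -2.20 ± 0.69 on the log2 scale (± SE; edgeR adjusted p = 0.00864), which became 0.31 (edgeR adjusted p = 0.691) without siNC replicate 2 and missed the threshold without siYTHDC1 replicate 2 (edgeR adjusted p = 0.0666), as it did in limma-voom (limma adjusted p = 0.0861). Groups are therefore named by their labels, and rises and falls are those of the libraries labelled siYTHDC1 relative to the libraries labelled siNC. Since siYTHDC1 replicate 1 and siNC replicate 2 stand out in this row, counts are also given without that pair. Epithelial markers were present, the summed level of 16 urothelial and epithelial genes being 11717 to 11883 counts per 1000000 (CPM) in siNC libraries and 6626 to 6747 CPM in siYTHDC1 libraries; 8 of the 12 tested members fell and 2 rose. KRT20 was at 0 in every library, and the uroplakin genes UPK1A, UPK1B, UPK2 and UPK3A had means under 1 CPM. For other cell types, 7 fibroblast markers summed to 79.5 to 85.8 CPM in siNC and 93.2 to 98.8 CPM in siYTHDC1 libraries, mostly COL1A1, with DCN at 0. The 6 immune markers summed to 6.62 to 8.03 and 4.71 to 6.50 CPM, mostly CD14, with CD3E at 0. CD68 was listed at 0 too, but same-strand exons of other genes cover 81.7% of its exonic bases, so that its 0 is not read as absence. The 4 endothelial markers summed to 5.52 to 7.79 and 6.00 to 7.51 CPM, the 4 adipocyte markers to 0.260 to 1.36 and 1.92 to 3.24 CPM (ADIPOQ and LEP at 0), and the 4 hepatocyte markers to 0.226 to 0.493 and 0.380 to 1.23 CPM. The part of these marker shifts in the results below was not tested.

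Sterol and fatty acid genes changed in both directions. Of the 40, 13 rose and 18 fell in edgeR's quasi-likelihood test (adjusted p under 0.05 over all genes tested), and 9 were not called. That is 77.5% called, where 53.4% of all tested genes were called (26.3% higher and 27.1% lower). These counts include LBR, whose fall was known when the genes were chosen. Most of the 40 are abundant, and abundant genes are called more often: of genes averaging 20 CPM or more, a bound chosen after the data were seen, 71.3% were called (33.1% higher and 38.2% lower). Of the 36 such members 30 were called (83.3%), 12 higher and 18 lower. The CPM values of the groups did not overlap for 33 of the 40, against 59.3% of all tested genes. The median log2 fold change of the 40 was -0.09, beside -0.00041 over all tested genes. In a test against a change of 1.2-fold, 13 of the 40 passed, 2 higher and 11 lower, where 26.8% of all genes did. For that test the split by direction was not compared with all genes or with abundant genes. Leaving out siNC replicate 2 and siYTHDC1 replicate 1 together gave 12 rises and 17 falls, where 46.4% of all genes tested were called. Counts by group below are to be read against the shares of all and of abundant genes given above. In a bulk sample, fewer cells of a type and less RNA per cell cannot be told apart.

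**Figure D1:**
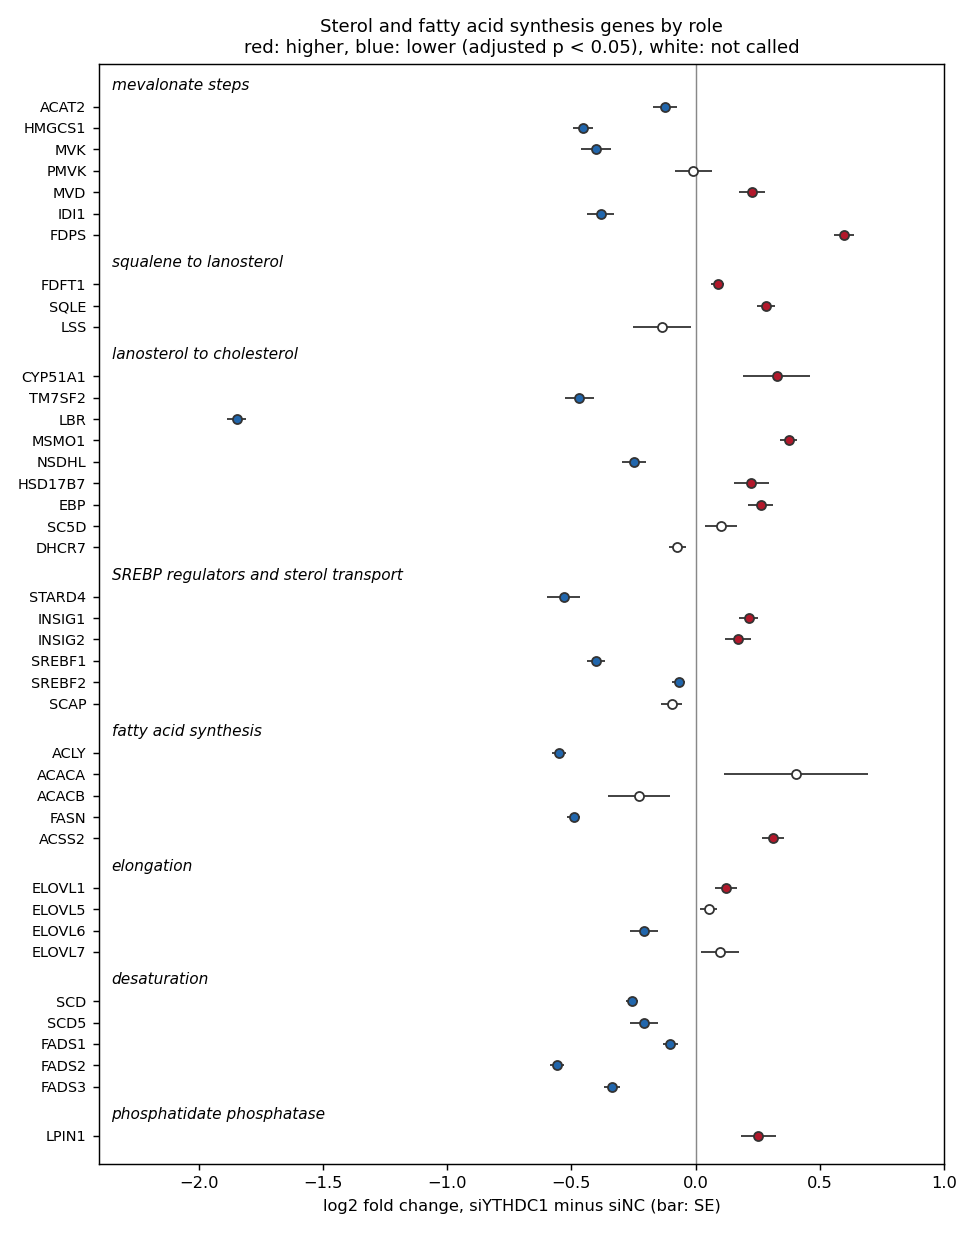
Log2 fold change of each gene (x axis, siYTHDC1 minus siNC, bars SE of the fit, 3 libraries per group) by role (y axis). LBR lies far to the left at -1.85, FDPS is the rightmost called gene at 0.60, and the sterol enzymes fall on both sides of 0 while all 5 desaturase genes lie below it.

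Promoters of 7 members are shown because they carry the contrasts in the values that follow: the pair of sterol reductase genes with the largest falls in the sterol pathway (LBR, TM7SF2), an early gene of the mevalonate path that fell and a late one that rose (HMGCS1, FDPS), and the 3 members with the SREBP core letters CACNCCAC in the window (SREBF2, INSIG1, SCD). Each is the 250 bases before the first RefSeq start listed for the gene, on GRCh38.p14, 5′ to 3′ on the gene's strand. Capitals mark CACNCCAC, the core of the sterol regulatory element, and CCAAT, the box bound by NF-Y, a frequent partner of SREBP, each on either strand.
LBR chr1:225428822-225429071 (- strand): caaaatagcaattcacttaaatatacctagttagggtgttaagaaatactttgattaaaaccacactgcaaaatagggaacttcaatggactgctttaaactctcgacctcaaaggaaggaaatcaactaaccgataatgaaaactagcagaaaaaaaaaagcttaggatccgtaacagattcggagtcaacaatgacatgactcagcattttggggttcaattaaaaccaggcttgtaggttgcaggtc
TM7SF2 chr11:65111622-65111871 (+ strand): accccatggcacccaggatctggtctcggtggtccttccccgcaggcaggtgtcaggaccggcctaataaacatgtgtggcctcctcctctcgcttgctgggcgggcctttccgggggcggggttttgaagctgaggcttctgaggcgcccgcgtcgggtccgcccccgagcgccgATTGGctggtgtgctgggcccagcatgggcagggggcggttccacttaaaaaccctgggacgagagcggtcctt
HMGCS1 chr5:43313413-43313662 (- strand): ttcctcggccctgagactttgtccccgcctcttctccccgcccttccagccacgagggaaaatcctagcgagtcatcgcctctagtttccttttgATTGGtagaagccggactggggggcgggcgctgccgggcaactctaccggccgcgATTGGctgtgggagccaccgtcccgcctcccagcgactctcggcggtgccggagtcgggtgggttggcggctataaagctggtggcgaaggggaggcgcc
FDPS chr1:155308616-155308865 (+ strand): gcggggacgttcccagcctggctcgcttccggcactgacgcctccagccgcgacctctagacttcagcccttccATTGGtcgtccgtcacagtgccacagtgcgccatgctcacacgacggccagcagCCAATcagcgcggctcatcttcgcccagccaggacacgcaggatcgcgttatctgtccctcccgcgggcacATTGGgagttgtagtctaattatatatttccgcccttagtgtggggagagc
SREBF2 chr22:41832855-41833104 (+ strand): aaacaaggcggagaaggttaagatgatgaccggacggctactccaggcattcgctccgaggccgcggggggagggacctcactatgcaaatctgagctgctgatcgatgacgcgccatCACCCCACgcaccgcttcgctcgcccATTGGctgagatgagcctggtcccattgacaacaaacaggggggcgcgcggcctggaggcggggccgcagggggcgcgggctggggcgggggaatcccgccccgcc
INSIG1 chr7:155297628-155297877 (+ strand): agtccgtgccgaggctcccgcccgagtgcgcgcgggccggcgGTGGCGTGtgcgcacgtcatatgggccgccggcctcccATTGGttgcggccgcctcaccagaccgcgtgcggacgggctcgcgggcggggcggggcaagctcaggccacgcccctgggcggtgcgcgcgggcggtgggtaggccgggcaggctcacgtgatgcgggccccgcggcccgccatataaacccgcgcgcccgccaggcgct
SCD chr10:100346983-100347232 (+ strand): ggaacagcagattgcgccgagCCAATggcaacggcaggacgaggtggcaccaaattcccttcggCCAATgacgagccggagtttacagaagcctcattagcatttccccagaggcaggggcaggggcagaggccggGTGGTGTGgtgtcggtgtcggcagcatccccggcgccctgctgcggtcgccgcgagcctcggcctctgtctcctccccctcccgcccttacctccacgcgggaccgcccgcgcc

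A window was given by RefSeq for 36 of the 40 genes. CCAAT or its reverse complement stood in 22 of the 36 windows (61.1%), against 32.7% of 22199 windows of protein-coding genes, and the 22 genes comprised 8 that rose, 10 that fell and 4 not called. CACNCCAC stood in 3 windows (8.33%, against 5.13%), those of INSIG1, which rose, and of SREBF2 and SCD, which fell. The GC box GGGCGG stood in 31 windows (86.1%, against 53.7%) and the E-box CACGTG in 4 (11.1%, against 7.37%). The letters of none of these motifs contain another, and each was searched on both strands. The LBR window held none of the 4 motifs, as did those of ACACB and FADS2, and was the poorest of the 36 in G and C, at 36.8%, where the median of the 36 was 67.6%. Windows of protein-coding genes had a median of 62%, and 4.51% of them had less than LBR. Each of the 36 genes entered with its first window only, while a protein-coding gene could enter the 22199 with several. The part of these differences in the motif shares was not tested. A match is only a run of letters. Annotated transcripts of some genes, among them every gene whose window is shown, also start inside these windows.

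In the mevalonate steps, 2 of 7 genes rose, 4 fell and 1 was not called. ACAT2 and HMGCS1 at the head of the path fell, and the prenyl synthase FDPS at its end rose. HMGCS1 (ENSG00000112972, chr5:43289395-43313512 on hg38), which joins acetyl-CoA and acetoacetyl-CoA, stood at 117, 117 and 116 CPM for siNC replicates 1 to 3, against 87.1, 86.8 and 82.1 CPM for siYTHDC1 replicates 1 to 3. Every siYTHDC1 library lay below every siNC library, a change of -0.45 ± 0.04 on the log2 scale (edgeR adjusted p = 2.06e-10). Values written with ± after a CPM are SD, and after a log2 change SE of the fit, over 3 libraries per group. FDPS (ENSG00000160752, chr1:155308748-155320666), which makes farnesyl diphosphate, had 89.96, 89.7 and 83.6 CPM against 137, 131 and 129.8 CPM. It was 1.51-fold higher, the largest rise among the 40 genes that was called (0.60 ± 0.04; edgeR adjusted p = 1.26e-12), with no overlap. Opposite-strand exons of other genes cover 18.6% of the exonic bases of FDPS and 14.95% of those of HMGCS1. The strand setting of the counting is not known.

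MVK, the mevalonate kinase, went from 42.3, 42.8 and 39.8 to 32, 31.8 and 30.6 CPM, or -0.40 ± 0.06 on the log2 scale. IDI1, which isomerises isopentenyl diphosphate, went from 63.02, 67.2 and 64.1 to 50.3, 46.2 and 52.4 CPM (-0.38 ± 0.05). Both fell in every siYTHDC1 library relative to every siNC library, by about as much as HMGCS1. MVD, the decarboxylase between these enzymes, rose from 49.3 ± 2.18 to 57.6 ± 2.12 CPM (SD, n = 3 each). PMVK, the phosphomevalonate kinase, was not called: its siNC libraries held 27.95, 23.8 and 26.6 CPM and its siYTHDC1 libraries 25.9, 26.8 and 25.04 CPM, and the groups overlapped. ACAT2, the cytosolic thiolase that forms acetoacetyl-CoA, had 69.7, 70.1 and 71.7 CPM against 61.8, 64.6 and 67.6 CPM and fell by a small 0.12 on the log2 scale (edgeR adjusted p = 0.0292). DESeq2 did not call it (adjusted p = 0.0532), nor did 4 of 6 single-library omissions, with edgeR adjusted p spanning 0.00771 to 0.152 (0.152 when siYTHDC1 replicate 1 was omitted). Exons of other genes on the opposite strand cover 52.3% of the exonic bases of ACAT2 and 14.8% of those of IDI1.

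The steps from farnesyl diphosphate to lanosterol held 2 rises and no fall among 3 genes. SQLE, the squalene epoxidase, rose from 196, 201 and 193 to 237, 228 and 252 CPM (0.28 ± 0.04; edgeR adjusted p = 1.5e-07). FDFT1, the squalene synthase, was at 415, 409 and 407 CPM and rose to 431, 441 and 438 CPM. That rise was slight (0.09 ± 0.03), though the groups did not overlap. LSS, the lanosterol synthase, had 12.1, 13.4 and 14.2 CPM against 11.5, 9.91 and 14.7 CPM, with overlap, and was not called (log2 fold change -0.14 ± 0.12). Without siYTHDC1 replicate 3, its highest library, LSS was called lower (-0.31, edgeR adjusted p = 0.0249), while without siYTHDC1 replicate 2, its lowest, the edgeR adjusted p was 0.940.

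Among the 9 genes from lanosterol to cholesterol, 4 rose and 3 fell. The largest difference of the 40 genes was in LBR (ENSG00000143815, chr1:225401502-225428925, up to 14 exons), the lamin B receptor, an inner nuclear membrane protein that binds chromatin and lamin B and is also a sterol reductase. It held 229, 219.9 and 231 CPM in the siNC libraries and 63.3, 61.4 and 64.3 CPM in the siYTHDC1 libraries. It was 3.597-fold lower, or -1.85 ± 0.04 on the log2 scale (edgeR adjusted p = 4.54e-24), and ran from -1.87 to -1.83 when 1 library was left out. TM7SF2 (ENSG00000149809, chr11:65111845-65116384), which encodes the other sterol reductase for the same step, went from 65.5, 65.7 and 63.5 to 46.3, 51.8 and 42.7 CPM. It fell as well, by less (-0.47 ± 0.06; edgeR adjusted p = 1.07e-07), so neither gene of this step rose.

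The other genes from lanosterol on moved in both directions. MSMO1, the sterol methyl oxidase, rose from 163, 159 and 164 to 216, 199 and 215 CPM (0.37 ± 0.04; edgeR adjusted p = 8.86e-10). EBP, the sterol isomerase, rose from 57.4 ± 1.37 to 68.8 ± 3.94 CPM (n = 3 each), and HSD17B7, a ketosteroid reductase, by 0.22 ± 0.07 on the log2 scale. NSDHL, the decarboxylating dehydrogenase that works with MSMO1 and HSD17B7 to remove methyl groups, fell from 67.5, 68.1 and 64.5 to 56.8, 56.2 and 55.5 CPM (-0.25 ± 0.05). Thus transcripts for 2 of the 3 enzymes of that demethylation rose and for 1 fell. In HSD17B7, 7.77% of the 75-base words recur in other genes, mainly its pseudogene HSD17B7P2.

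CYP51A1, the lanosterol demethylase, was called higher (0.32 ± 0.13; edgeR adjusted p = 0.0436) at 5.93, 5.54 and 6.62 CPM against 8.101, 7.895 and 6.66 CPM. Its highest siNC library lay just below its lowest siYTHDC1 library. The call was lost with DESeq2 (adjusted p = 0.0997), with limma-voom (limma adjusted p = 0.0533), without the low-count filter (edgeR adjusted p = 0.0952), with the replicate block (edgeR adjusted p = 0.0567) and in 4 of 6 single-library omissions, where edgeR adjusted p spanned 0.0206 to 0.148 (0.148 when siNC replicate 2 was omitted). Exons of other genes on the same strand cover 79.4% of its exonic bases, so its level is uncertain. DHCR7, the last reductase of the path, was abundant and not called (244, 259.9 and 248 against 231, 239.6 and 244 CPM, log2 fold change -0.07 ± 0.03). It passed with the replicate block (edgeR adjusted p = 0.0478), when siNC replicate 1 was omitted (0.0298) and without siYTHDC1 replicate 3 (0.0135). SC5D, the sterol desaturase, was not called either (0.10 ± 0.06, edgeR adjusted p = 0.186), but passed without siNC replicate 2 and siYTHDC1 replicate 1 (0.21, edgeR adjusted p = 0.0205).

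Summed over the 19 sterol enzymes, the level was 1975 ± 13.2 CPM in siNC and 1896 ± 19.1 CPM in siYTHDC1 libraries (SD, n = 3 each), a difference of -4.01%. Without LBR the sum of the other 18 went the opposite way, from 1749 ± 18.6 to 1833 ± 18.1 CPM, or 4.82% more. The sign of the sum therefore rested on 1 gene, whose fall was known when the genes were chosen. These sums are descriptions and were not tested.

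**Figure D2:**
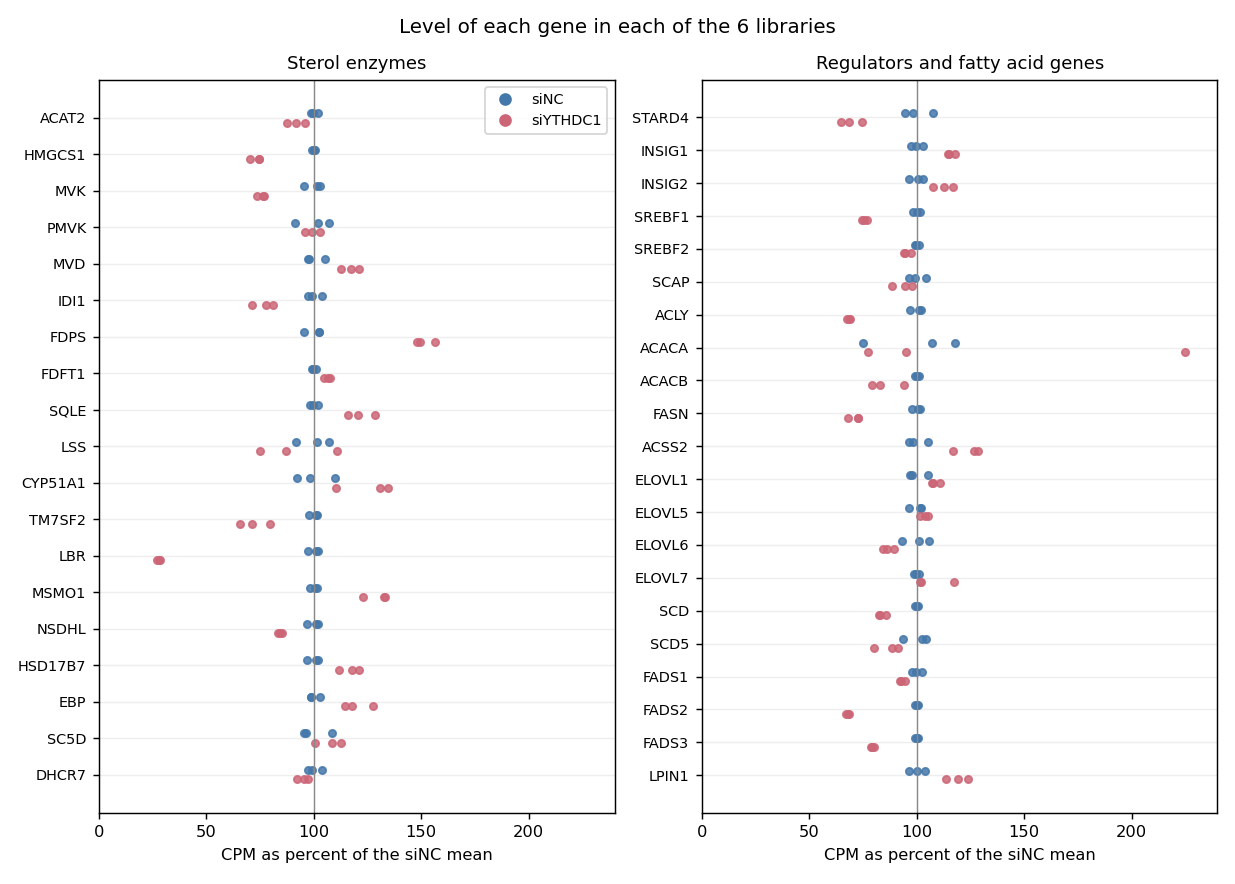
Level of each gene in each library (x axis, CPM as percent of the mean of the 3 siNC libraries; points are libraries, blue siNC and red siYTHDC1). The siYTHDC1 points of LBR stand far below those of all other genes, and 1 siYTHDC1 point of ACACA, replicate 2, stands far to the right of the other 5.

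Of the 6 regulators and sterol transport genes, 2 rose and 3 fell. SREBF1 (ENSG00000072310, chr17:17810399-17837002), whose product favours genes of fatty acid synthesis, went from 164, 169 and 167 to 124, 128 and 126 CPM. It fell without overlap (-0.40 ± 0.03; edgeR adjusted p = 1.42e-10). SREBF2, whose product favours genes of sterol synthesis, moved far less, from 410.2, 409.8 and 417 to 388, 389 and 402 CPM (-0.07 ± 0.03; edgeR adjusted p = 0.034). Of 6 single-library omissions, 4 ended that call, edgeR adjusted p spanning 0.00356 to 0.127 (0.127 when siYTHDC1 replicate 2 was omitted), as did upper-quartile scaling (0.0724), total counts only (0.0729) and dropping the filter on low counts (0.0585).

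INSIG1, a retention factor of SCAP and itself a target of SREBP, rose from 130.1, 126 and 123 to 149, 145 and 145 CPM (0.21 ± 0.04; edgeR adjusted p = 1.71e-05). Its paralog INSIG2 rose from 50.8, 48.6 and 51.9 to 54.3, 59.02 and 56.9 CPM (0.17 ± 0.05), a call lost without siNC replicate 2 (edgeR adjusted p = 0.0542, the lowest of the 6 fits being 0.00451). Both rises were small and free of overlap. SCAP had 129, 125 and 136 CPM against 123, 127 and 115 CPM and just missed the threshold (-0.10 ± 0.04; edgeR adjusted p = 0.0502), passing with limma-voom (limma adjusted p = 0.0484), without the filter (edgeR adjusted p = 0.0383) and in 2 of the 6 fits without 1 library (0.0229 without siYTHDC1 replicate 2 and 0.0286 without siNC replicate 2). STARD4, a carrier of cholesterol between membranes, fell from 41.9, 43.5 and 47.7 to 28.7, 30.4 and 33.02 CPM. At -0.53 ± 0.07 (edgeR adjusted p = 1.25e-07) it had the largest change of this group.

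Genes of fatty acid synthesis, elongation and desaturation fell more often than they rose. Of 15 with LPIN1 counted in, 3 rose, 8 fell and 4 were not called. That is 73.3% called, against 53.4% of all tested genes (26.3% higher and 27.1% lower). Among genes averaging 20 CPM or more, 71.3% were called (33.1% higher and 38.2% lower), so the share called was close to that of abundant genes. ACLY (ENSG00000131473, chr17:41866908-41930542), which splits citrate into acetyl-CoA and oxaloacetate, had 464, 489 and 486 CPM in siNC and 324, 330.3 and 329 CPM in siYTHDC1 libraries. It was 1.46-fold lower (-0.55 ± 0.03; edgeR adjusted p = 2.62e-15). ACSS2, which makes acetyl-CoA from acetate, went the other way, from 88.1, 86.1 and 94.4 to 104, 115 and 113 CPM (0.31 ± 0.04; edgeR adjusted p = 1.43e-06). Neither gene's groups overlapped, so the transcripts for these enzymes of cytosolic acetyl-CoA supply moved in opposite directions. Enzyme amounts were not measured. FASN (ENSG00000169710, chr17:82078333-82098332), the fatty acid synthase, went from 865, 889 and 898 to 602, 644 and 641 CPM (-0.49 ± 0.03; edgeR adjusted p = 9.32e-15). It was the most abundant of the 40 in CPM together with SCD.

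The acetyl-CoA carboxylases, which supply malonyl-CoA to the synthase, gave no call. ACACA had 67, 93 and 103 counts in siNC and 68, 189 and 82 counts in siYTHDC1 libraries, with siYTHDC1 replicate 2 far above the rest, and was not called (0.40 ± 0.29; edgeR adjusted p = 0.255). Without that library its log2 fold change was -0.21 (edgeR adjusted p = 0.554), and with siYTHDC1 replicate 1 omitted instead it rose to 0.68 (edgeR adjusted p = 0.0474). Of the 11 protein-coding genes within 500000 bases of ACACA (chr17:37084988-37406818), 1 had a mean above 10 CPM, and AATF, a broadly expressed gene named after its values were seen, was at 0.0289 CPM; whether this stretch was counted in full was not tested, and no level of ACACA is read from it. ACACB, the carboxylase isoform at the mitochondrial membrane, was at 7.96, 7.84 and 7.89 CPM against 6.24, 6.54 and 7.42 CPM and was not called (-0.23 ± 0.12; edgeR adjusted p = 0.126).

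All 5 desaturase genes fell. FADS2, the first desaturase of polyunsaturated fatty acid synthesis, went from 379, 381 and 375 to 258, 259 and 254 CPM, the largest fall among the fatty acid genes (-0.56 ± 0.03; edgeR adjusted p = 1.96e-15). FADS1, the later desaturase of that path, went from 330.1, 322 and 315 to 299, 297 and 304 CPM, a slight fall (-0.10 ± 0.03; edgeR adjusted p = 0.00412). FADS3, a desaturase gene of the same cluster, went from 232, 230.1 and 233 to 183, 185 and 182 CPM (-0.34 ± 0.03). These 3 genes are neighbours on chromosome 11, where the first RefSeq starts listed for FADS1 (- strand) and FADS2 (+ strand) lie 800 bases apart, the one of FADS2 inside FADS1. Where these transcripts overlap, reads could be told apart only by strand, and the strand setting of the counting is not known. SCD, which makes monounsaturated fatty acids, went from 858, 873 and 869 to 719, 713 and 743 CPM (-0.26 ± 0.02; edgeR adjusted p = 4.91e-10). Its paralog SCD5 fell by a like amount (-0.21 ± 0.06), from 58.3 ± 3.38 to 50.5 ± 3.39 CPM (SD, n = 3 each).

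The elongase genes differed among themselves. ELOVL6, which extends palmitate, fell from 54.7, 48.2 and 52.2 to 44.6, 43.6 and 46.2 CPM (-0.21 ± 0.06; edgeR adjusted p = 0.00283). ELOVL1, which makes very long saturated chains, was called higher by 0.12 ± 0.04 (edgeR adjusted p = 0.0246), at 83.9, 77.9 and 76.96 CPM against 85.8, 88.3 and 85.3 CPM. Of 6 single-library omissions, 3 ended that call, with edgeR adjusted p spanning 0.0104 to 0.144 (0.144 when siNC replicate 3 was omitted). ELOVL5, an elongase of polyunsaturated chains, and ELOVL7 were not called (0.05 ± 0.03 and 0.10 ± 0.08). LPIN1, a phosphatidate phosphatase on the way to triglycerides and phospholipids, rose from 24.3, 26.3 and 25.3 to 30.1, 31.4 and 28.8 CPM (0.25 ± 0.07). The 15 genes summed to 3681 ± 26.7 CPM in siNC and 2967 ± 33.5 CPM in siYTHDC1 libraries (SD, n = 3 each), a difference of -19.4% that was not tested. The sum is carried mostly by FASN, SCD, ACLY and FADS2, the most abundant of the 15 in CPM, which all fell. Of the 15, 3 rose and 4 were not called.

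Levels of different genes were set side by side per kilobase of exon. SCD led in siNC libraries at 162 CPM per kilobase, followed by FASN at 94.4, ACLY at 91.95 and FDFT1 at 78.9 CPM per kilobase. In siYTHDC1 libraries SCD was at 135 and FDFT1 at 83.9 CPM per kilobase, and FDFT1 thus passed FASN (67.2) and ACLY (62.8). LBR went from 43.1 to 11.98 CPM per kilobase, which put it below TM7SF2 (19.1 and 13.8 CPM per kilobase) in the siYTHDC1 libraries and above it in the siNC libraries. With ACACA and CYP51A1 left out, since their levels are uncertain, the lowest levels in siNC were those of ACACB (0.544), LSS (1.83) and LPIN1 (2.13 CPM per kilobase).

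The ratio of counts between related genes does not depend on how libraries are scaled, and 7 pairs were compared, with 0.5 added to each count. For LBR per TM7SF2 count siNC replicates 1 to 3 gave 3.498, 3.34 and 3.63, and siYTHDC1 replicates 1 to 3 gave 1.37, 1.19 and 1.504. For SREBF1 per SREBF2 they were 0.400, 0.413 and 0.401 against 0.321, 0.330 and 0.313. Both ratios were lower in every siYTHDC1 library, so LBR lost more than TM7SF2 and SREBF1 more than SREBF2. FADS1 per FADS2 went up from 0.870, 0.844 and 0.839 to 1.16, 1.14 and 1.197, and ELOVL5 per ELOVL6 from 3.37, 3.62 and 3.52 to 4.28, 4.32 and 3.98. In these 4 pairs the groups did not overlap, and an exact 2-sided permutation test gave p = 0.1, the smallest that 3 against 3 libraries allow, or 0.175 after adjustment over the 7 pairs. INSIG1 per INSIG2, SCD per SCD5 and ACACA per ACACB overlapped between the groups (exact permutation p = 0.6 each, also after adjustment), with log2 differences of 0.04, -0.05 and 0.50.

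**Figure D3:**
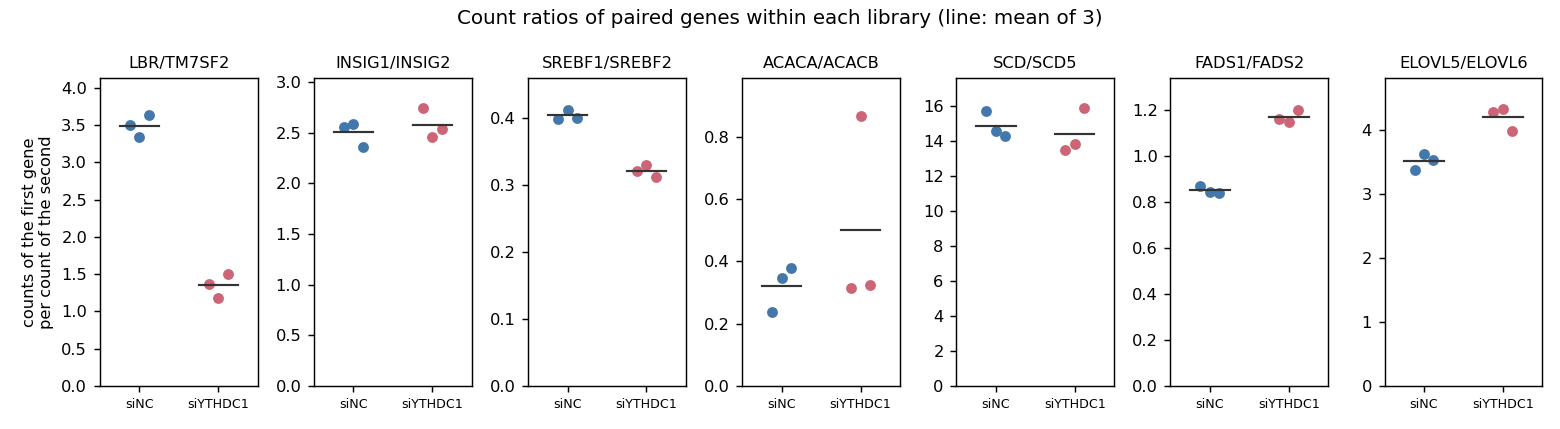
Counts of the first gene per count of the second (y axis) in each library, for 7 pairs (x axis: group; points are libraries and lines are means of 3). LBR per TM7SF2 drops from a mean of 3.49 to 1.35, and the groups stand apart for LBR/TM7SF2, SREBF1/SREBF2, FADS1/FADS2 and ELOVL5/ELOVL6.

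Lists of 105 further genes of lipid metabolism placed these changes in context. Each count is to be read against the 53.4% called over all genes and the 71.3% called among genes averaging 20 CPM or more. Of 12 genes of the isoprenoid branches, which use farnesyl diphosphate for other ends, 4 rose and 3 fell (median log2 fold change 0.05). PDSS2, a subunit of the synthase of the ubiquinone side chain, rose from 10.2 ± 1.74 to 17.9 ± 0.875 CPM (n = 3 each; 0.81 ± 0.10), and NUS1, of the dolichol synthase, by 0.47 ± 0.04 on the log2 scale. FNTB, the farnesyltransferase subunit (-0.68 ± 0.16), and RABGGTA, of the transferase that prenylates Rab proteins (-0.43 ± 0.07), fell. FNTB had 7.09, 5.69 and 6.44 CPM against 4.87, 3.78 and 3.33 CPM, and its level is uncertain because same-strand exons of other genes cover 42.1% of its exonic bases.

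Of 14 genes of SREBP cleavage and sterol-regulated degradation, 2 rose and 7 fell (median -0.06). The rises included ERLIN1, which with ERLIN2 forms a complex in the endoplasmic reticulum that restrains SREBP activation, from 42.3, 41.6 and 42.4 to 73.7, 70.8 and 76.5 CPM (0.81 ± 0.05). ERLIN2 fell from 56.7, 56.9 and 56.4 to 43.1, 42 and 43.7 CPM (-0.40 ± 0.05), so transcripts for subunits of 1 complex moved in opposite directions. MBTPS2, the protease that makes the second cut in SREBP, fell from 54.2 ± 2.78 to 40.3 ± 1.44 CPM (n = 3 each; -0.43 ± 0.06; 13.4% of its exonic bases are shared with same-strand exons of other genes), and UBE2J2, a ubiquitin-conjugating enzyme, by 0.29 on the log2 scale. MBTPS1, the protease of the first cut, chosen after its values were seen, had a log2 fold change of 0.00 ± 0.04 and was not called.

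Genes of sterol efflux, storage and trafficking, with the LXR receptors, rose in 12 of 19 tested members of 20 and fell in 3 (median 0.29). NCEH1, which hydrolyses cholesterol esters, rose from 60.1, 56.9 and 57.2 to 101, 101 and 105 CPM (0.82 ± 0.04). ABCG1, a sterol exporter, rose from 41.3 ± 0.449 to 68.1 ± 3.45 CPM (n = 3 each), GRAMD1C, of a family of sterol carriers, by 0.70 ± 0.09, and NPC1, which moves cholesterol out of lysosomes, by 0.58 ± 0.04 on the log2 scale. SOAT1, which esterifies cholesterol for storage (-0.49 ± 0.05), ABCA1, an exporter of cholesterol to apolipoproteins (-0.34 ± 0.05), and STARD3, an endosomal sterol carrier (-0.18 ± 0.04), fell and were named after their values were seen. NCEH1 and SOAT1, which take cholesterol out of esters and into them, thus moved in opposite directions.

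Partners of elongation and acyl-CoA synthetases rose in 5 and fell in 8 of 19 tested genes of 21 (median -0.12). MLXIPL, which encodes a glucose-sensing activator of lipogenic genes, was 2.14-fold higher (6.78, 7.89 and 8.15 against 17.1, 14.7 and 17.2 CPM; edgeR adjusted p = 9.01e-10). ME1, the malic enzyme that yields NADPH, rose by 0.82 ± 0.10 and ACSL5 by 0.49 ± 0.08, while ACSL4, which activates arachidonate, fell by 0.56 on the log2 scale. Glycerolipid synthesis held 7 rises and 6 falls in 15 tested genes of 18 (median 0.16), among them rises of GPAT3 (0.73 ± 0.06) and CHKA (0.52 ± 0.07) and falls of AGPAT3 (-0.50 ± 0.03) and PCYT1A (-0.64 ± 0.08). CHKA and PCYT1A act in turn in phosphatidylcholine synthesis. Fatty acid oxidation held 5 rises and 9 falls in 20 genes (median -0.22). SLC25A20, the carnitine carrier of the inner mitochondrial membrane, fell from 14.2, 14.2 and 12.97 to 7.41, 7.87 and 9.76 CPM (-0.72 ± 0.11), and CPT1C (-0.70 ± 0.08) and ECHS1, an enoyl-CoA hydratase (-0.61 ± 0.05), fell too. Among the genes of these lists named here by rule, the highest edgeR adjusted p was 0.000914, for FNTB, and their calls held under every alternative run, except that UBE2J2 did not pass the test against a fold of 1.2.

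**Figure D4:**
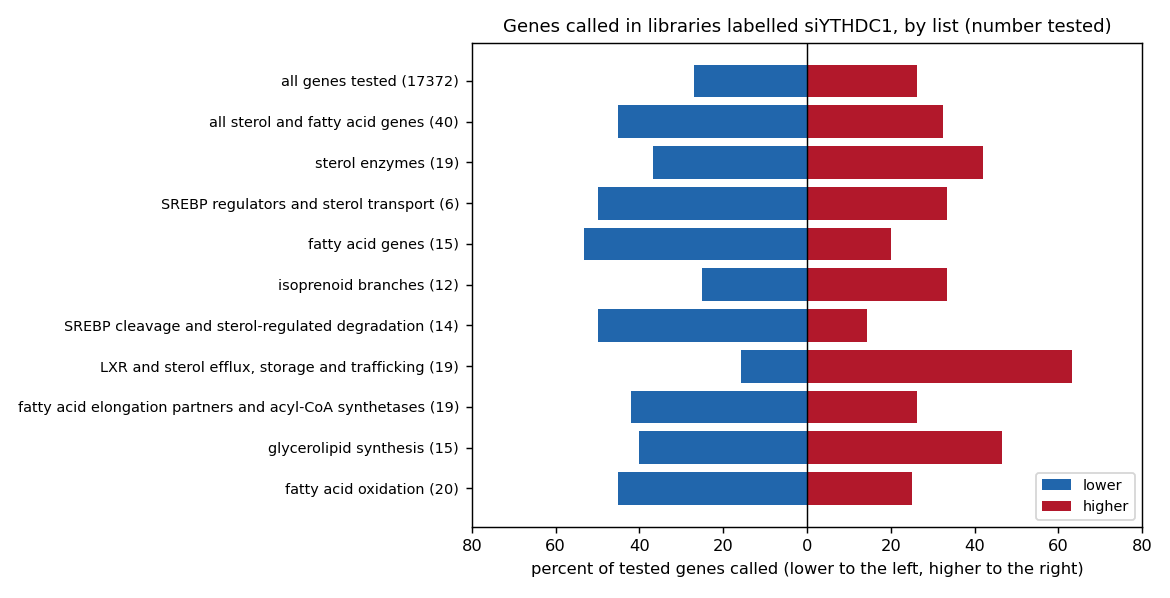
Percent of tested genes called lower (left, blue) and higher (right, red) in siYTHDC1 libraries, for all genes, the 40 sterol and fatty acid genes and their groups, and 6 further lists (number tested in brackets). Fatty acid genes lean to the left with 3 rises and 8 falls, and the list of sterol efflux, storage and trafficking leans to the right with 12 rises and 3 falls. Of all tested genes, 27.1% were called lower and 26.3% higher.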

How the data were processed

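The authors deposited raw counts of reads for Ensembl genes, with 1 column per library. The build is hg38 per the submitters' processing notes, and libraries were made with a directional kit per the labels' protocols. For the aligner, counter, annotation release and strand setting: not given in the sources used here. Columns were matched to samples by title. Ensembl identifiers were turned into symbols by lookup, and positions and exon overlaps were read from GENCODE 29.

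All 6 libraries entered 1 fit in edgeR 4.0.16 (R 4.3.3; TMM scaling, default low-count filter, quasi-likelihood test, Benjamini-Hochberg adjustment over 17372 genes, threshold 0.05). CPM are TMM-scaled and SE is the log2 fold change over the root of F. The labels do not say that replicates were separate cultures, so p-values may measure technical spread. The genes and lists were chosen with earlier results of these data known, among them the fall of LBR. Named were all 40 members, YTHDC1, and up to 4 called genes per list, ranked by size of change among those averaging 1 CPM or more; 1 of these is not reported here. Alternatives were other scalings, DESeq2 1.42.0, limma-voom 3.58.1, other filters, a test against a fold of 1.2, a replicate block and left-out libraries. The fits were also run on simulated data with far fewer changed genes and mostly larger folds than here. That run does not test small changes or the scaling when many genes change. Promoter windows are RefSeq's, on GRCh38.p14.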

Additional observations from a re-analysis of the deposited data

How the results depend on the processing

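Under scaling by median ratios, upper quartiles or total counts, DESeq2, limma-voom and other low-count filters, the 40 sterol and fatty acid genes gave 29 to 31 calls, and none of the called ones changed sign. DESeq2 called 27.4% of the 31396 genes it tested, and the fit without a low-count filter 29.2% of 31406. The other settings among these called 52.9% to 53.6% of the genes they tested. A test against a fold of 1.2 left 13 of them (2 higher, 11 lower), 31 of the 71 calls in the further lists and 4657 of the 9278 calls over all genes; it asks for more than a difference from 0. Fits that left out 1 library gave 27 to 33 calls, 10 to 13 higher and 16 to 20 lower, while 47.4% to 49.9% of all genes tested were called, and 26 of the 31 called genes were called in all 6. The uncalled PMVK, at -0.01, turned to 0.00011 with total counts only and ran from -0.075 to 0.037 with 1 library left out. ACACA ran from -0.21 (without siYTHDC1 replicate 2) to 0.68, and YTHDC1 from -4.17 (without siYTHDC1 replicate 1) to 0.31 (without siNC replicate 2); the cause was not tested. Same-numbered replicates did not deviate together (r of deviations across 17372 genes from -0.0165 to 0.00545). Libraries paired by design but without a shared shift would give the same, so pairing is not settled. The replicate block gave 31 calls, 12 higher and 19 lower, and 9227 over all genes. The groups of 4 of 7 gene pairs stayed apart with a pseudocount of 1 and in 5 of the 6 left-out fits, with 5 pairs apart without siYTHDC1 replicate 3. ACACA had the fewest counts of the 40 genes, 67 to 189 per library.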
